A study of Drosophila melanogaster with 14 samples.

Results

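The transcripts of 10 genes of the Dpp pathway, the BMP pathway of *Drosophila* that lies upstream of the *spalt* genes, were followed in 14 mRNA-Seq libraries of whole embryos. The genes were taken by name and role, 10 of the 13781 genes in the table: the ligands *dpp* (CG9885) and *gbb* (CG5562), the type I receptors *tkv* (CG14026) and *sax* (CG1891), the type II receptor *put* (CG7904), the Smads *Mad* (CG12399) and *Med* (CG1775), the inhibitory Smad *Dad* (CG5201), and the transcription factors *brk* (CG9653) and *shn* (CG7734). All 10 passed the filter on low reads. Every library was made from pools of 50 embryos, at early stage 16 or early stage 17. Wild type embryos (WT) came from an Oregon R stock, with 2 libraries at each stage. Homozygous embryos (Ho, 3 libraries at each stage) carry the deficiency *Df(2L)32FP-5* on both second chromosomes, which removes *salm* and *salr*, and were picked by absence of GFP from a stock kept over a *CyO*-GFP balancer. Heterozygous embryos (He, *Df(2L)32FP-5*/+, 2 libraries at each stage) were the offspring of females of that stock and *white* males, so genotype and strain background cannot be told apart. Libraries of a group are separate pool preparations, lettered by experiment, and ab joins reads that the study treats as technical replicates. The labels do not say which parents or days the pools came from, so p-values measure only the spread between these libraries. The stage field of the labels reads stage 16 in every sample, and the labelled age, with an upper end of 14 hours, is also the same in all 14 samples. The study's methods give an age of up to 14 hours of egg development for early stage 16, and a later age of around 16 hours for early stage 17. Neither label separates the stages, and the stage was taken from the titles.

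Dpp and Gbb are secreted ligands of the BMP family. They bind complexes of type I receptors (Tkv, Sax) and the type II receptor Put, which phosphorylate Mad. Phosphorylated Mad enters the nucleus with the co-Smad Med and, with the zinc finger protein Shn, silences *brk*, which encodes a repressor of many Dpp targets. Dad is induced by the pathway and inhibits it, and in the wing disc *salm* and *salr* are targets that are activated where Dpp signalling keeps Brk away. In late embryos the pathway is known for its part in dorsal closure, heart and midgut patterning, tracheal branching and, through Gbb, signalling from muscle to motor neurons.

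Between stage 16 and stage 17, *brk* fell and *shn* rose at an adjusted p under 0.05, and none of the 10 genes reached 0.001, the threshold used here. The call of *brk* at 0.05 held under every alternative run, and that of *shn* under all but scaling to total reads (0.66, adjusted p = 0.0935). Between Ho and WT embryos none of the 10 reached either threshold in limma on the deposited values, while *salm* and *salr* themselves were nearly absent. The 8 other genes differed between stages by between -0.99 and 0.45 on the deposited scale. Values of the table are variance-stabilised and only similar to log2: over the range of 100 to 5000 normalised reads, in which all values of the 10 genes lie (118 to 3192), a doubling of reads was 1.23 units. Differences in the text are on this deposited scale unless given as fold changes, which are 2 to the power of the mean difference of log2(normalised reads + 1).

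**Figure D1:**
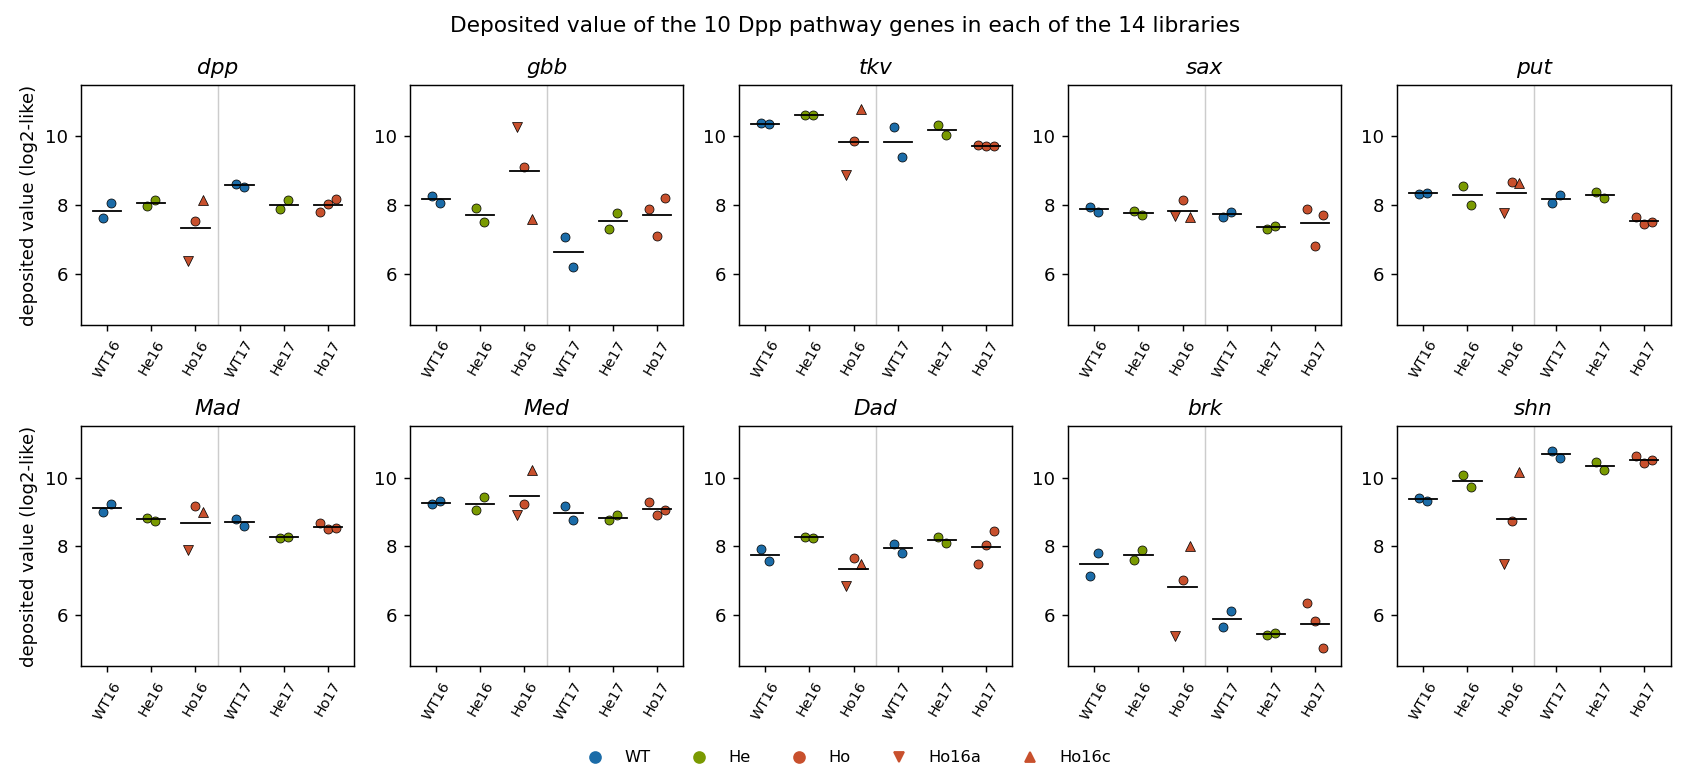
Deposited value (log2-like, vertical axis) of each of the 10 genes in each of the 14 libraries, by condition; horizontal bars are condition means, and triangles mark Ho16a (pointing down) and Ho16c (pointing up). The 7 stage 17 libraries of *shn* sit between 10.22 and 10.77, above all 7 of stage 16, and *brk* is between 5.02 and 6.34 at stage 17.

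Depth was between 4760014 reads on genes in Ho16a and 23212826 in WT17c (median 17995784), as recovered from the deposited values. These totals exceed the gene totals in the study's supplement by a nearly constant factor whose reason was not found, so reads are best taken as relative between libraries. *salm*, which encodes the zinc finger protein Spalt major, had 768 to 2651 reads in the WT and He libraries and 0 to 96 in those of Ho. *salr*, its paralogue, had 603 to 1660 and 0 to 19 reads. Ho libraries thus match their labels, although the test of the mean Ho minus WT difference gave -6.34 for *salm* (adjusted p = 0.00291) and -6.53 for *salr* (adjusted p = 0.0017, limma), short of 0.001. Marker genes of neurons, glia, heart, midgut and muscle had at least 10 reads in every library, the tracheal gene *trh* had 0 to 42, and no gene of an adult ovary and eye list exceeded 56 reads. Ho16a and Ho16c stood apart: the standard deviation of all tested genes around the condition mean was 0.98 and 1.25, against 0.37 to 0.67 in the other 12 libraries. In Ho16a deviations from the condition mean fell by 1.40 for each 10-fold increase in gene length, and in Ho16c they rose by 1.42. Slopes of the other libraries lay between -0.27 and 0.27. Deviations within a condition cancel, so the opposite trends of Ho16a and Ho16c are not independent of each other. Leading results that use Ho16 are therefore also given without Ho16a, Ho16c or both. Omission of both was chosen with the data in view and leaves Ho16b as the lone Ho16 library, so only effect sizes are given for it.

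The order of the 10 genes by level was read from normalised reads per kilobase of exon, with exon lengths of the Release 6 annotation. In WT16, *tkv* was highest at 569 ± 7.45 (SD, n = 2), followed by *gbb* at 467 ± 34.0, *Med* at 412 ± 15.6 and *Mad* at 383 ± 32.1 reads per kilobase. The neighbours *gbb*, *Med* and *Mad* were separated by gaps close to their SD. *sax* (235 ± 14.2) and *put* (215 ± 1.29) formed a middle level, and *brk* (171 ± 45.2), *Dad* (160 ± 21.3), *shn* (135 ± 5.06) and *dpp* (127 ± 21.1) stood at the lower end. There the 2 libraries of *brk* overlapped with those of *Dad* and *dpp*, and those of *shn* with *dpp*, while *Dad* lay above *shn* and *dpp* in both libraries. Transcripts of the receptors, *Mad* and *Med* were thus more abundant per length than those of the ligand *dpp* and of *Dad*, *brk* and *shn*. The level of *Med* may include reads of genes on the opposite strand, as given below. In WT17 the lowest was *brk* at 67.0 ± 14.2 reads per kilobase, and *shn* stood at 270 ± 19.2, behind *tkv*, *Med* and *Mad*. By condition mean, *brk* was the lowest of the 10 genes at stage 17 in all 3 genotypes, and *dpp* was the lowest at stage 16. Single libraries of stage 16 did not all keep that order. *shn* was below *dpp* in WT16c (131 against 142), Ho16a (49.5 against 54.8) and Ho16b (97.1 against 106). *brk* was also below *dpp* in Ho16a (47.2), as was *Dad* in Ho16c (139 against 149).

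The gene with the largest mean stage difference over the 3 genotypes was *brk*, the repressor, although in Ho alone *shn* and *gbb* differed more. At stage 16 its deposited value was 7.13 and 7.81 in WT, 7.60 and 7.90 in He, and 5.37, 7.01 and 8.02 in Ho16a, Ho16b and Ho16c. At stage 17 it was 5.65 and 6.12 in WT, 5.42 and 5.48 in He, and 6.34, 5.81 and 5.02 in Ho. Of the 7 stage 16 libraries, 6 lay above every stage 17 library, and the exception was Ho16a, where *brk* had 38 reads. The mean stage difference over the 3 genotypes was -1.65 (standard error 0.39, 95% confidence interval -2.49 to -0.82, adjusted p = 0.00465, limma), a 2.66-fold lower level. By genotype it was -1.58 in WT (adjusted p = 0.188), -2.30 in He (adjusted p = 0.0551) and -1.07 in Ho (adjusted p = 0.194, limma). The exact negative binomial test on recovered reads, the kind of test in the authors' tool, gave an adjusted p of 7.34e-08 for He. Without Ho16a the mean difference of *brk* was -1.89 (adjusted p = 0.000175) and that of Ho -1.79 (adjusted p = 0.0116). Without Ho16c they were -1.45 (adjusted p = 0.00174) and -0.47 (adjusted p = 0.477). Without both libraries, with Ho16b as the lone Ho16 library, they were -1.72 and -1.29. The *brk* gene lies in an intron of CG1677 on the opposite strand, with no exon bases in common.

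*shn*, which encodes the cofactor through which Mad and Med silence *brk*, moved in the other direction. Its value at stage 16 was 9.42 and 9.32 in WT, 10.06 and 9.73 in He, and 7.49, 8.74 and 10.17 in Ho16a, Ho16b and Ho16c. At stage 17 it was 10.77 and 10.58 in WT, 10.46 and 10.22 in He, and 10.64, 10.43 and 10.52 in Ho. It was the 1 gene of the 10 whose 7 stage 17 libraries all lay above the 7 of stage 16, where 19.1% of all tested genes were split between the stages in either direction. The mean stage difference was 1.16 (standard error 0.33, 95% confidence interval 0.44 to 1.88, adjusted p = 0.0163, limma), a 1.85-fold higher level. It was 1.31 in WT (adjusted p = 0.214), 0.44 in He (adjusted p = 0.781) and 1.73 in Ho (adjusted p = 0.022). Without both Ho16a and Ho16c, with Ho16b as the lone Ho16 library, the mean difference was 1.18 and that of Ho 1.79. *shn* is the longest of the 10 genes (10997 exon bases), and with the length trend removed from each library the mean difference was 0.61 (adjusted p = 0.0137) and that of Ho 0.72 (adjusted p = 0.0534). The call of *shn* at 0.05 in Ho was also lost with scaling to total reads, in the fit of the Ho libraries alone, in the exact test, and without Ho16b, Ho17a, Ho17b or Ho17c, with adjusted p-values between 0.0538 and 0.139. In Ho its difference was 1.07 (adjusted p = 0.0423) without Ho16a and 2.41 (adjusted p = 0.000139) without Ho16c.

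The ratio of *brk* to *shn* reads per exon base, chosen after their values were seen and given with no test, was between 0.932 and 1.55 in the 7 stage 16 libraries. In the 7 stage 17 libraries it was between 0.149 and 0.332. Ho16a and Ho16c, at 0.955 and 1.11, lay inside the range of the other stage 16 libraries, in contrast to their single values of either gene. The stages did not overlap in this ratio in any genotype. Summed normalised reads of 3 body wall muscle genes (*Mhc*, *Mef2*, *Act57B*) also separated the stages, at 161470 to 247960 in stage 16 and 358000 to 575320 in stage 17. In whole embryos fewer cells of a type and less RNA per cell cannot be told apart, and the part of tissue growth in these stage differences was not tested.

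**Figure D2:**
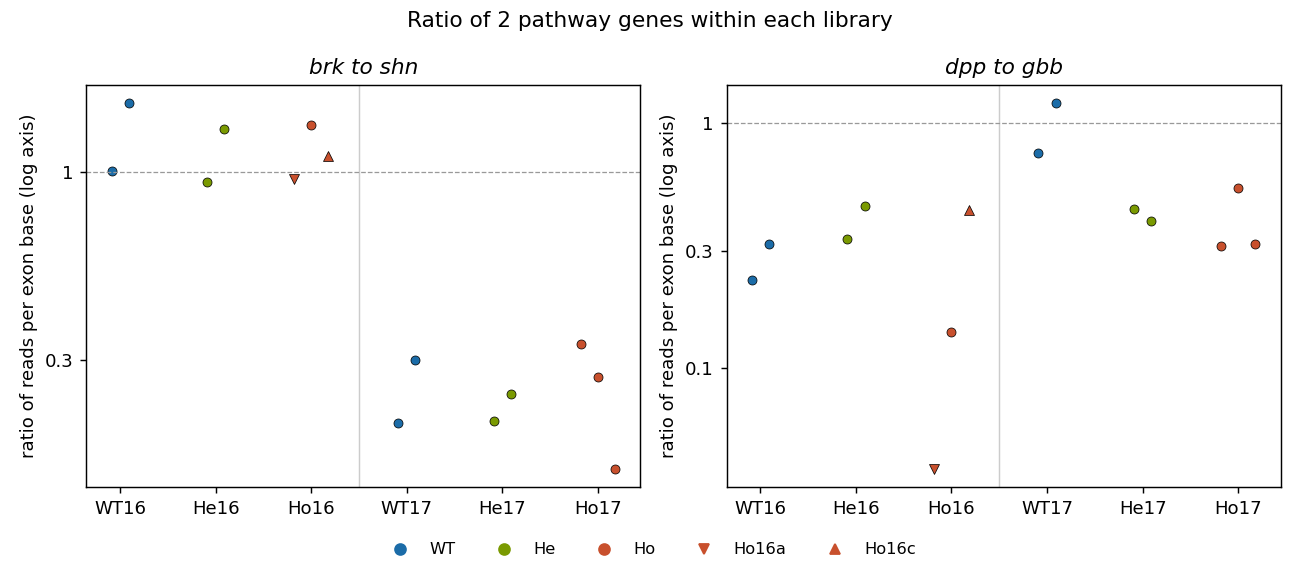
Ratio of reads per exon base within each library on a log axis, *brk* to *shn* (left) and *dpp* to *gbb* (right), by condition; each point is a library and triangles mark Ho16a and Ho16c. The stage 17 ratios of *brk* to *shn* are between 0.149 and 0.332, all below those of stage 16, whereas *dpp* to *gbb* ranges from 0.0385 in Ho16a to 1.20 in WT17c.

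Both ligands were measured in every library. For *gbb*, the BMP ligand with known roles at the neuromuscular junction, values at stage 16 were 8.26 and 8.07 in WT, 7.90 and 7.50 in He, and 10.28, 9.10 and 7.58 in Ho16a, Ho16b and Ho16c. At stage 17 they were 7.06 and 6.19 in WT, 7.30 and 7.76 in He, and 7.87, 7.09 and 8.20 in Ho. In WT the stages did not overlap, but they overlapped in He and Ho. The mean stage difference was -0.99 (standard error 0.38, adjusted p = 0.0586, limma), with -1.54 in WT, -0.17 in He and -1.26 in Ho, where the adjusted p-values were 0.194, 0.939 and 0.12. *gbb* is the shortest of the 10 genes (1686 exon bases), and within Ho16 its value was highest in Ho16a and lowest in Ho16c. Without both of them, with Ho16b as the lone Ho16 library, the mean stage difference of *gbb* was -1.03 and that of Ho -1.37. The mean difference of *gbb* passed 0.05 with the length trend removed (adjusted p = 0.0143), with quantile normalisation (0.0137) and with scaling to total reads (0.00943). With library weights it passed 0.001 (0.000436), but that fit rests on Ho16b for nearly all of Ho16. Its weights were 142 for Ho16b, 0.121 for Ho16a and 0.0722 for Ho16c. The difference in Ho was -0.62 without Ho16a (adjusted p = 0.374) and -1.97 without Ho16c (adjusted p = 0.00356).

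*dpp*, the ligand that gives the pathway its name, had values of 7.62 and 8.05 in WT16, 7.97 and 8.14 in He16, and 6.37, 7.52 and 8.14 in Ho16a, Ho16b and Ho16c. At stage 17 they were 8.61 and 8.53 in WT, 7.87 and 8.14 in He, and 7.81, 8.02 and 8.18 in Ho. Stage 17 was above stage 16 without overlap in WT only among the 3 genotypes, and the mean stage difference was 0.45 (95% confidence interval -0.13 to 1.02, adjusted p = 0.218, limma). In Ho the difference of *dpp* was 0.66, with 0.17 without Ho16a, 1.06 without Ho16c (adjusted p = 0.0301) and 0.48 without both. Per exon base there was less *dpp* than *gbb* in 13 of 14 libraries, with ratios between 0.0385 and 0.750, and more in WT17c (1.20). The ratio was 0.229 and 0.321 in WT16 and 0.750 and 1.20 in WT17. In He it was 0.336 and 0.457 at stage 16 and 0.443 and 0.398 at stage 17, so that the stages overlapped. In Ho it was 0.0385, 0.140 and 0.438 in Ho16a, Ho16b and Ho16c and between 0.313 and 0.539 at stage 17.

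The receptors differed less between stages. *tkv*, the main type I receptor for Dpp, ranged from 8.87 to 10.81 at stage 16 (median 10.39) and from 9.40 to 10.32 at stage 17 (median 9.75). Its mean stage difference was -0.37 (95% confidence interval -0.97 to 0.24). *sax*, a type I receptor with affinity for Gbb, was between 7.65 and 8.15 and between 6.81 and 7.88, a mean difference of -0.31 (-0.78 to 0.17). *tkv* had more reads per exon base than *sax* in all 14 libraries, by ratios of 1.23 in Ho16a to 3.47 in Ho16c. *put*, the type II receptor, was 7.65, 7.45 and 7.50 in Ho17, below the 4 other libraries of stage 17 (8.07 to 8.38) and all 3 of Ho16 (7.77 to 8.67). Its stage difference in Ho was -0.82 (standard error 0.31, adjusted p = 0.0715, limma). It passed 0.05 with the length trend removed (-1.20, adjusted p = 0.00396), with quantile normalisation (-1.06, adjusted p = 0.0323) and without Ho16a (-1.12, adjusted p = 0.00733). Without both Ho16a and Ho16c, with Ho16b as the lone Ho16 library, it was -1.13. With library weights it passed 0.001 (-1.12, adjusted p = 8.53e-05), but that fit rests on Ho16b for nearly all of Ho16. For *put*, the difference between the stage changes of Ho and WT was -0.67 (adjusted p = 0.984). On the Release 6 annotation *tkv* shares 212 exon bases with genes on the opposite strand, *TpnC25D* and CR14033, whose reads cannot be told apart from its own if strand was not used.

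The Smads fell within a narrow range. *Mad*, the Smad phosphorylated by the receptors, ranged from 7.90 to 9.24 at stage 16 and from 8.25 to 8.81 at stage 17, and had a mean difference of -0.36 (95% confidence interval -0.84 to 0.13). *Med*, the co-Smad, was between 8.92 and 10.23 and between 8.76 and 9.29, a mean difference of -0.36 (-0.86 to 0.13). Within a library there was less *Mad* than *Med* per exon base, at ratios between 0.526 and 0.975. *Med* shares 423 exon bases with *Mnat9* and *CycG* on the opposite strand, and its level is less certain than that of *tkv*. Over all libraries *CycG* had 352361 reads against 21364 for *Med*, whereas *TpnC25D* had 4096 against 35752 for *tkv*. The part of *CycG* reads in the level of *Med* and in the ratios of *Mad* to *Med* was not tested. *Dad*, the inhibitory Smad that is used as a readout of pathway activity in the wing, was between 6.86 and 8.28 at stage 16 and between 7.50 and 8.43 at stage 17. Its mean stage difference was 0.26 (-0.22 to 0.74, adjusted p = 0.404), and this was -0.02 when reads were scaled to library totals.

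Over the 10 genes, limma called 0 at an adjusted p under 0.001 in the mean stage difference, where 15.1% of the 11584 tested genes were called. It called 2 at 0.05, where 35.5% of tested genes were called, and 3 had an unadjusted p under 0.05. The count at 0.05 depended on the processing: it was 6 with the length trend removed, 4 with quantile normalisation and 8 with library weights. The shares of all tested genes at 0.05 under these settings were not counted. At 0.001 they called 1974, 1915 and 3667 of all tested genes, where 1750 were called as reported. With voom weights 1 of the 10 was called at 0.001, and 1836 of all tested genes. In the single genotypes 0 were called by limma, against 3.37% of tested genes in WT, 2.99% in He and 7.96% in Ho, and unadjusted p-values under 0.05 numbered 2, 1 and 3. The shares of all tested genes with an unadjusted p under 0.05 were not counted, here or in the mean. The exact negative binomial test called 1 of the 10 in He and 0 in WT and Ho. Of the 11584 tested genes it called 1935 in He, 2085 in WT and 1319 in Ho. The median absolute mean stage difference was 0.36 for the 10 genes and 0.65 for all tested genes. Of the 10 genes 7 were lower at stage 17, with a median of -0.34, while 49.7% of all tested genes were lower. Libraries of the 2 stages did not overlap for 8 of the 10 genes in WT, 6 in He and 2 in Ho, where the shares of all tested genes were 61.9%, 63.6% and 35.5%.

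**Figure D3:**
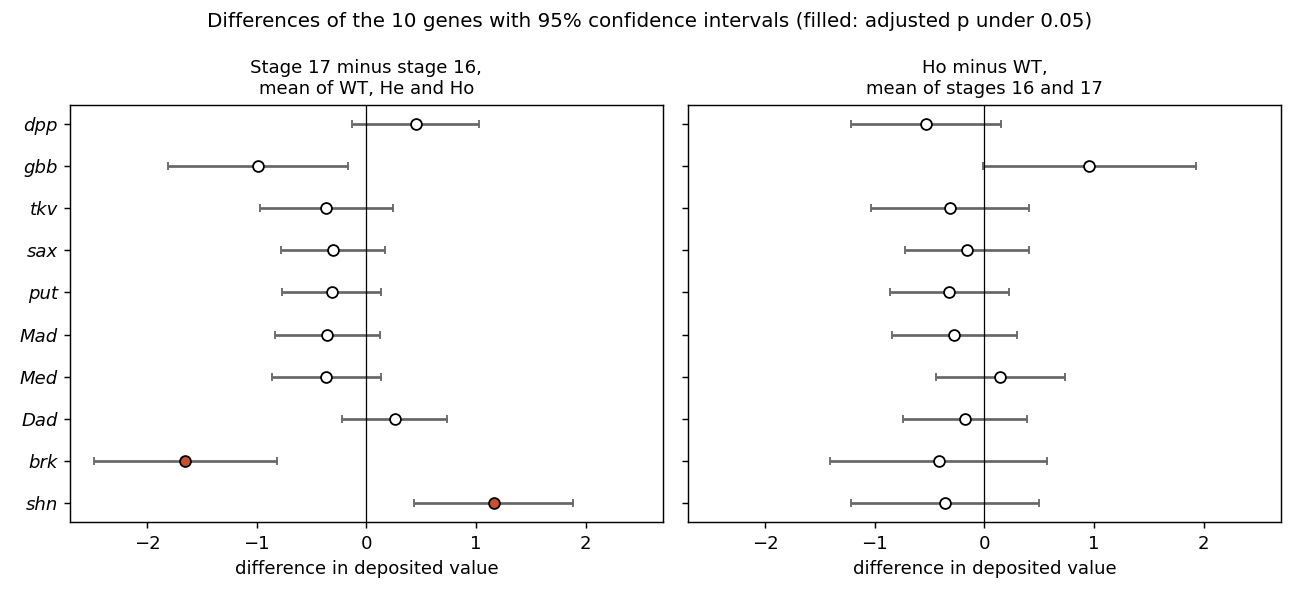
Difference in deposited value (horizontal axis) of each of the 10 genes with its 95% confidence interval, for the mean stage change (left) and the mean Ho minus WT difference (right); filled points have an adjusted p under 0.05. *brk* at -1.65 and *shn* at 1.16 are filled on the left, and no point is filled on the right.

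The deficiency removes *salm* and *salr*, targets of the pathway, and the comparison of Ho with WT asks whether transcripts of the genes upstream differed in their absence. In the mean over the stages, differences ran from -0.53 for *dpp* to 0.96 for *gbb*, with adjusted p-values of at least 0.504 in limma. The 95% confidence intervals were -1.21 to 0.15 for *dpp*, -0.02 to 1.93 for *gbb*, -1.41 to 0.57 for *brk*, -1.22 to 0.50 for *shn* and -0.75 to 0.39 for *Dad*. The intervals of *tkv*, *sax*, *put*, *Mad* and *Med* lay within -1.03 and 0.73. None of the 10 genes was called at 0.001, or had an unadjusted p under 0.05, where 0.0259% of tested genes were called, and none was called at 0.05, where 0.604% were. At 0.001, voom called 0 of the 10 in this mean, where it called 0 of all tested genes. The exact negative binomial test called 0 of the 10 at either stage, where it called 237 of all tested genes at stage 16 and 305 at stage 17. With library weights, which leave Ho16b to stand for nearly all of Ho16, 0 of the 10 passed 0.001 but *gbb* passed 0.05 in the mean (1.02, adjusted p = 0.0161). The weighted fit called 93 of all tested genes at 0.001 in the mean. Its shares of all tested genes at 0.05, in the mean and at stage 16, were not counted. At stage 16 that fit had *gbb* (0.93, adjusted p = 0.00824), *shn* (-0.63, adjusted p = 0.012) and *tkv* (-0.51, adjusted p = 0.0316) past 0.05, and called 307 genes at 0.001 where 1 was called without weights.

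At stage 16, differences between Ho and WT ran from -0.67 for *brk* to 0.82 for *gbb*, and the libraries overlapped for all 10 genes, against 19.3% of tested genes whose libraries did not. Background calls at 0.001 were 0.00863% of tested genes. These differences depended on which Ho16 library was left out. Without Ho16a, *brk* went from -0.67 to 0.04, *shn* from -0.57 to 0.09 and *gbb* from 0.82 to 0.17. Without Ho16c they were -1.28, -1.25 and 1.52. Without both, with Ho16b as the lone Ho16 library and assumed to vary like the other groups, they were -0.46, -0.63 and 0.93.

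At stage 17, where no library stood apart in length trend, 3 of the 10 genes did not overlap between Ho and WT, and 29.2% of tested genes did not. *dpp* was lower in Ho17 (7.81 to 8.18) than in WT17 (8.53 and 8.61), by 0.57 on average (adjusted p = 0.859, limma). *put* was lower by 0.66 (adjusted p = 0.69), and *gbb* was higher in Ho17 (7.09 to 8.20) than in WT17 (6.19 and 7.06), by 1.09 (adjusted p = 0.738). Background calls at 0.001 were again 0.00863%, none of them among the 10 genes. *brk*, which stood between 5.02 and 6.34 in Ho17 and at 5.65 and 6.12 in WT17, differed by -0.16 (-1.56 to 1.24). *Dad* differed by 0.05 (-0.76 to 0.85).

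Stage changes of the 10 genes in Ho and WT differed by between -0.67 (*put*) and 0.51 (*brk*), with adjusted p-values of at least 0.984 in limma, where 0% of tested genes were called. He embryos, which keep 1 copy of the deleted region, differed from WT by between -0.47 (*gbb*) and 0.53 (*shn*) at stage 16 and between -0.56 (*dpp*) and 0.90 (*gbb*) at stage 17, each with an adjusted p of 1. Of tested genes, 0.00863% were called at stage 16 and 0% at stage 17. The 2 libraries of He and the 2 of WT did not overlap for 5 of the 10 genes at stage 16 and for 7 at stage 17, where the shares of tested genes were 34.2% and 32.3%. *Dad* was higher and *Mad* lower in He than in WT at both stages without overlap, by 0.53 and 0.34 units at stage 16 and by 0.23 and 0.43 at stage 17. Neither gene was called, and the share of all tested genes split the same way at both stages was not counted. Ho differed from He by between -1.10 (*shn*) and 1.28 (*gbb*) at stage 16, and from -0.76 (*put*) to 0.31 (*Mad*) at stage 17. None of these differences was called, where 0% of tested genes were called at either stage, and those of *Dad* at stage 16 (-0.93) and *put* at stage 17 had an unadjusted p under 0.05. The share of all tested genes with such an unadjusted p was not counted. Without Ho16a the stage 16 differences from He were 0.63 for *gbb*, -0.44 for *shn* and -0.69 for *Dad*. Without Ho16c they were 1.99, -1.78 and -1.01, and without both they were 1.39, -1.15 and -0.61. With library weights 4 of the 10 passed 0.05 in this comparison (*gbb*, *shn*, *tkv* and *Dad*, with adjusted p-values between 0.00161 and 0.0441). That weighted fit called 66 of all tested genes at 0.001 and rests on Ho16b for nearly all of Ho16. The share of all tested genes that it passed at 0.05 was not counted. These comparisons share their WT, He or Ho libraries and are not independent of each other.

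The spread among Ho16 libraries followed the length of the 10 genes more steeply than that of all genes. Their deviation from the Ho16 mean changed by -2.74 in Ho16a and by 3.02 in Ho16c for each 10-fold increase in exon length, against -1.40 and 1.42 over all tested genes. Correlations with log length over the 10 genes were -0.74 and 0.77, and -0.27 in Ho16b. Because deviations within Ho16 cancel, opposite signs in Ho16a and Ho16c are in part fixed by the measure. *gbb* was 1.30 above the Ho16 mean in Ho16a and 1.41 below it in Ho16c, and *shn* was 1.31 below and 1.37 above. *brk*, with 3194 exon bases, was 1.43 below in Ho16a and 1.22 above in Ho16c, as far as *shn*. Other genes of similar length, such as *Mad* (3412 bases) and *Med* (3425 bases), were 0.79 and 0.54 below in Ho16a.

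**Figure D4:**
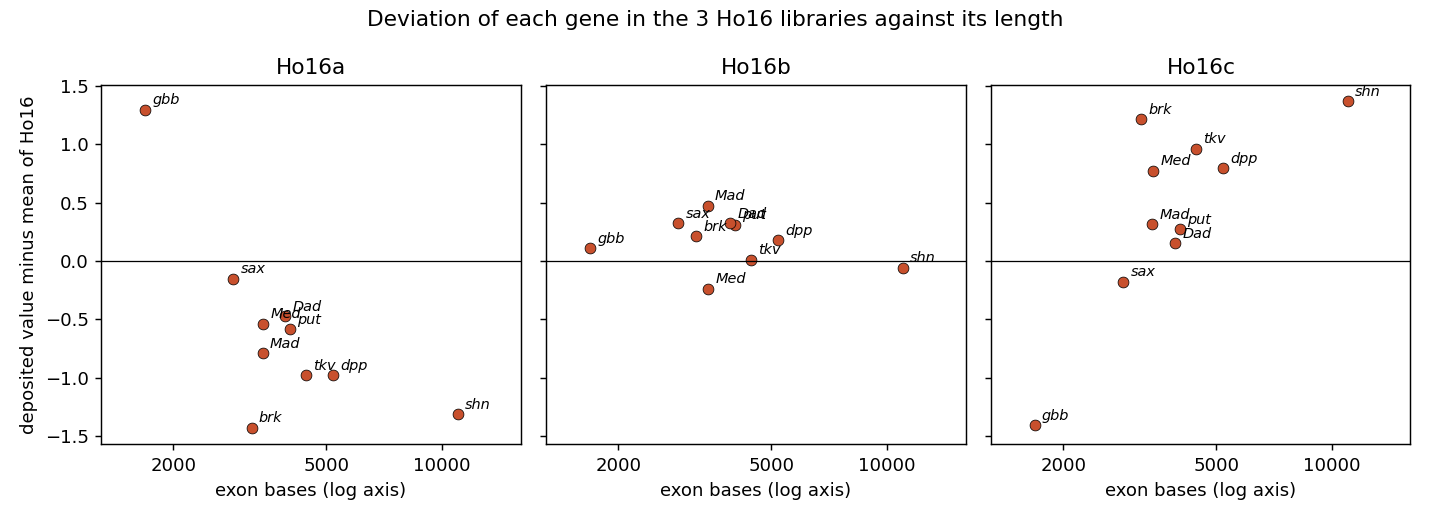
Deposited value minus the Ho16 mean (vertical axis) of each of the 10 genes in Ho16a, Ho16b and Ho16c against its exon bases on a log axis; each point is a gene. *gbb* is at 1.30 in Ho16a and -1.41 in Ho16c, the long gene *shn* has the opposite signs, and points of Ho16b lie between -0.24 (*Med*) and 0.47 (*Mad*).

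Across the 14 libraries the 10 genes fell into patterns that in part rest on these libraries. *dpp* and *shn* had a Pearson r of 0.87, which was 0.64 without Ho16a and Ho16c. *gbb* ran opposite to *dpp* (r = -0.89, and -0.76 without both) and to *shn* (-0.87 and -0.72). *Mad* and *brk* had r = 0.76 (0.74 without both). *brk* and *shn* had r = -0.15 over all 14 libraries and -0.69 without both. Libraries of a condition share genotype and stage, so these values describe the 14 libraries and are not tests. The tested genes whose values ran closest to *dpp* over the 14 libraries were *par-1* (r = 0.95), *Lar* (0.95) and *tei* (0.95), and those closest to *Dad* were *Naa60* (0.89), *Xe7* (0.88) and *swm* (0.87). Closest to *brk* were *fray* (0.96), CG7694 (0.96) and *roq* (0.96), of which *fray* and CG7694 overlap on the same strand and may share reads.

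A wider list of 46 pathway genes outside the 10, with 43 tested, was read in the same fit. The ligand *scw* and the modulator *tsg*, which act with Dpp in the early embryo, and the early target *zen* had 6, 24 and 17 reads in all 14 libraries and were not tested. In the mean stage difference 2 genes were higher and 0 lower at an adjusted p under 0.001, and 6 were higher and 1 lower at 0.05, while 15.1% and 35.5% of all tested genes passed these thresholds. The median of the 43 was -0.19, against 0.01 for all tested genes. By role, 1 of 4 ligands, 1 of 6 intracellular modulators and none of 2 receptors, 1 Smad, 9 extracellular or surface modulators and 21 targets passed 0.001.

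*daw*, which encodes Dawdle, a ligand of the Activin branch that signals through Babo and Smox, was 5.76 and 5.77 in WT16, 6.31 and 6.33 in He16, and 6.22, 4.72 and 6.54 in Ho16a, Ho16b and Ho16c. At stage 17 it was 7.61 and 8.87 in WT, 8.47 and 7.47 in He, and 8.01, 8.36 and 8.10 in Ho. All 7 stage 17 libraries lay above the 7 of stage 16, and the mean difference was 2.15 (standard error 0.33, adjusted p = 0.0002, limma). *Smox*, the Smad of that branch, rose by 1.13 (adjusted p = 0.00876), short of 0.001. *Smox* is not the Smad that Dpp and Gbb use, and the receptor *babo* did not pass 0.05.

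Among surface and extracellular modulators, which bind BMP ligands or process their antagonists, 3 of 9 rose and 1 fell at 0.05, a count near the 35.5% of all tested genes that passed. *cv-2* rose by 1.19 (adjusted p = 0.00106, limma), *tok*, a Tolloid family protease, by 1.09 (0.00417) and the glypican *dally* by 0.81 (0.0181). The other glypican, *dlp*, fell by 1.13 (adjusted p = 0.00174). *ttv*, which encodes an enzyme of heparan sulfate synthesis that the glypicans need, was called with a difference of 1.79 (adjusted p = 5.4e-06), but its reads are uncertain. *LamC* lies in an intron of *ttv* on the opposite strand and had 87.5% to 97.4% as many reads as *ttv* in each library. The reads of *ttv* beyond those of *LamC* came to 183 to 697 normalised reads at stage 16 and to 465 to 708 at stage 17, so the stages overlapped.

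Of 21 tested targets and pathway-dependent genes, none passed 0.05 between stages, where 35.5% of all tested genes did, with a median of -0.40. In the mean Ho minus WT difference 0 of 43 passed 0.001 in limma, and *salm* and *salr*, which the deficiency removes, were the 2 that passed 0.05. Genes of the heart and midgut that need Dpp earlier in development, among them *tin*, *pnr*, *Doc1*, *Doc2*, *Doc3* and *lab*, were in the 19 other targets that did not.

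**Figure D5:**
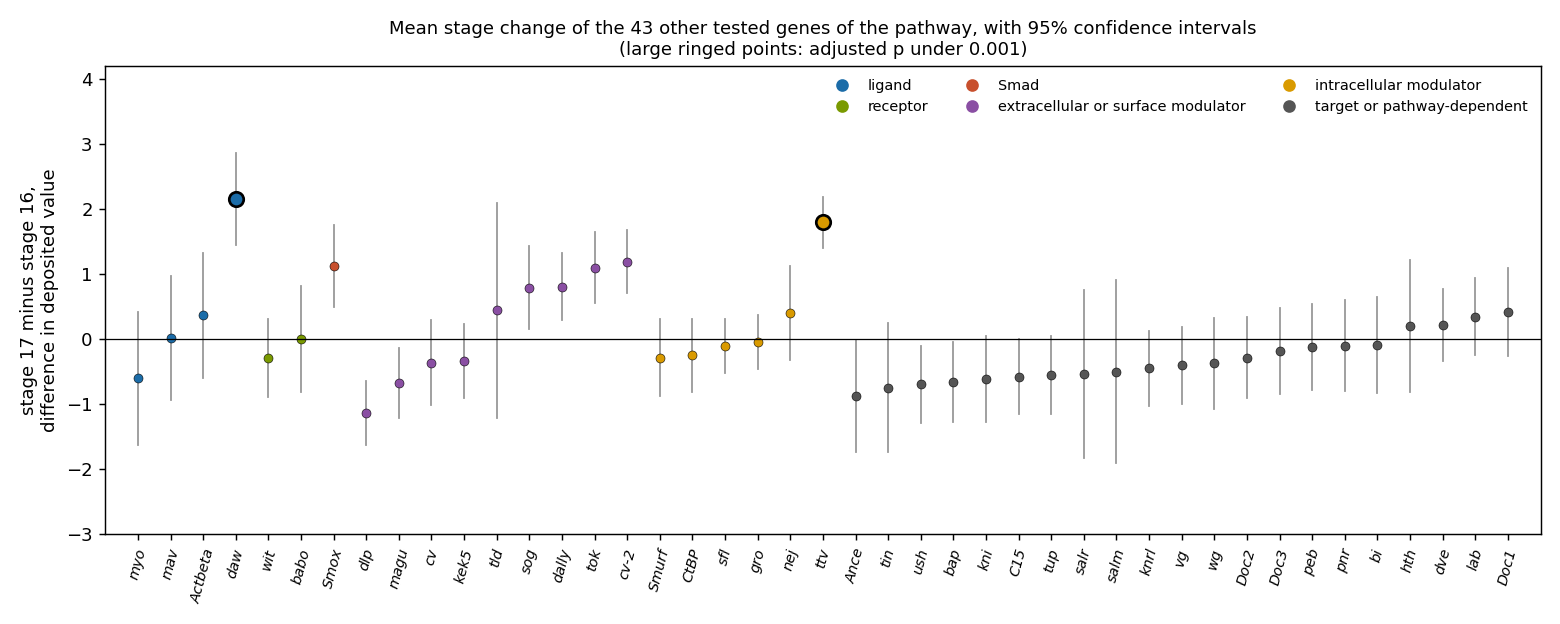
Mean stage change in deposited value (vertical axis) of the 43 tested genes of the wider list, coloured by role and ordered within it, with 95% confidence intervals as grey lines; large ringed points have an adjusted p under 0.001. *daw* at 2.15 and *ttv* at 1.79 are ringed, the latter with reads close to those of *LamC*, and the targets lie near or below 0.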

How the data were processed

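Poly-A RNA from pools of 50 embryos was sequenced by mRNA-Seq in 14 libraries. Per the labels and the study's methods, the authors used Bowtie with FlyBase r5.22, counted reads per gene, divided the counts by DESeq size factors and deposited variance-stabilised values on a log2-like scale. Whether counting used exons only, or strand, is not given in the sources used here. In the deposited table a gene without reads has the value -0.040. Every library follows the same curve, and inverting it returned whole reads, with 99.9% of 158533 values within 0.05 of a whole read. Library totals lay between 4760014 and 23212826 reads on genes, and a count of 0 is compatible with up to 3 reads by counting error alone.

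The deposited values were tested with limma 3.58.1 (R 4.3.3) as means of 6 conditions with a variance trend (residual degrees of freedom 8, prior 4.58), and p-values were adjusted by Benjamini-Hochberg over 11584 genes in each of 12 comparisons. Genes entered with 10 or more reads, at the median depth, in 2 or more libraries and a total of 15 or more reads. A gene was called at an adjusted p under 0.001, and 0.05 was the alternative. The other alternatives were no filter, only the libraries compared, a replicate block, library weights, log2 of normalised reads plus 1 or plus 0.1, scaling to total reads, quantile normalisation, removal of a gene length trend (lowess span 0.5), an exact negative binomial test (locfit 1.5.9.12), voom and each library left out. Omission of Ho16a and Ho16c together was chosen with the data in view. Recovery of reads, limma and the exact test were tested on simulated data.

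All 10 genes are named, and of the wider pathway list those called in the mean stage change or the mean Ho minus WT difference, with *salm* and *salr*. For *dpp*, *Dad* and *brk* the 3 genes most correlated over the 14 libraries are named. Other genes were named after their values were seen. The members and lists were chosen with earlier results of these data known. Symbols (13625 genes) and exon lengths (13611 genes) came from a Release 6 annotation, and no coordinates are given because the builds differ. Labels do not say how letters relate libraries across conditions. Deviations of the 6 c libraries from their condition means correlated between 0.02 and 0.34 over 15 pairs, so the letters were not taken as pairs. Summaries were made in Python 3.11.15 (numpy 2.4.6; pandas 2.3.3; scipy 1.17.1).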

Additional observations from a re-analysis of the deposited data

Results flagged for a closer look

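For 2 of the 10 genes the difference between He and WT had opposite directions at the 2 stages, with no overlap between the libraries compared at either stage. *gbb* was lower in He than in WT by 0.47 at stage 16 and higher by 0.90 at stage 17, and the second difference exceeded the first by 1.37 (standard error 0.98, adjusted p = 1, limma). *shn* was higher by 0.53 at stage 16 and lower by 0.34 at stage 17, a change of -0.87 (standard error 0.87, adjusted p = 1). Neither change passed the test, and with 2 libraries a group 3.59% of all tested genes were split in this way.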

How the results depend on the processing

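Of 70 differences of the 10 genes, 47 kept their direction under every alternative run and 23 did not; no reversed difference had been called, and the causes were not tested. Scaling to total reads turned *Dad* between stages to -0.12 in WT and -0.0195 in the mean, *put* between stages in He to -0.26, and Ho minus WT at stage 16 to -0.15 for *put* and -0.0247 for *Med*. Quantile normalisation gave -0.0745 for *Dad* in WT, -0.22 for *put* in He and -0.0062 for *put* in Ho minus WT at stage 16. Removal of the length trend gave -0.036 for *put* in He, 0.0944 for *sax* and 0.0929 for *shn* in Ho minus WT at stage 16, and 0.0251 for *shn* in the mean. Library weights gave 0.28 for *sax*, 0.0403 for *Mad* and -0.0552 for *Med* at stage 16, -0.0114 for *Dad* at stage 17 and 0.0369 for *sax* in the mean. Without both Ho16a and Ho16c the values were 0.28 for *sax*, 0.0414 for *Mad* and -0.0554 for *Med* at stage 16, and 0.0071 for *sax* in the mean.

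With each library left out in turn, stage differences in He ranged from -0.18 to 0.0886 for *dpp*, -0.40 to 0.059 for *gbb*, -0.26 to 0.30 for *put* and -0.18 to 0.0015 for *Dad*. In Ho they ranged from -0.60 to 0.37 for *tkv*, -0.51 to 0.12 for *Mad* and -0.64 to 0.013 for *Med*. Ho minus WT at stage 16 ranged from -0.21 to 0.0407 for *sax*, -0.14 to 0.31 for *put*, -0.21 to 0.45 for *Med*, -1.28 to 0.0443 for *brk* and -1.25 to 0.0864 for *shn*. At stage 17 it ranged from -0.54 to 0.33 for *tkv*, -0.47 to 0.0619 for *sax*, -0.10 to 0.32 for *Med*, -0.18 to 0.29 for *Dad* and -0.47 to 0.19 for *brk*, and in the mean from -0.26 to 0.0075 for *sax* and -0.0478 to 0.28 for *Med*.

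In the mean stage difference the number of the 10 genes called was 0 as reported, 2 at 0.05, 3 with library weights and 1 with voom. It was 0 to 1 with each Ho library left out, the 1 arising without Ho16a (*brk*) or Ho16c (*shn*). In Ho it was 1 at 0.05, 3 with library weights and 0 to 1 with each Ho library left out, the 1 arising without Ho16c. Of all tested genes, 3545 were called in Ho with library weights and 1532 without Ho16c. The share of all tested genes at 0.05 in Ho was not counted. In He it was 1 with library weights and 1 with the exact test, which called 1282 and 1935 of all tested genes. Library weights, which gave Ho16b a weight of 142 against 0.121 for Ho16a and 0.0722 for Ho16c, called 3667 genes in the mean stage difference, where 1750 were called as reported. With a replicate block 1883 genes were called and 0 of the 10, and *brk* had an adjusted p of 0.00442. The exact test and the fits on 2 conditions could be run for single comparisons only. Having 2 libraries in each WT and He group and the spread of Ho16 set the width of the intervals.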
